A study of Triticum aestivum with 12 samples.

Results

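SWEET proteins are membrane channels that let sugars pass down their concentration gradient. The genes described here are the wheat genes whose Pfam description holds the MtN3/saliva (SWEET) domain and that had 10 or more counts summed over all 12 libraries. Of 124118 genes in the deposited table, 97 carried this domain description and 58 passed the minimum. Among the other 39 genes, 28 had a count of 0 in every library. The member just inside the minimum was TraesCS1B01G066900 with 14 counts, and the gene just outside it was TraesCS7B01G064300 with 9 counts.

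RNA was taken from seedlings of wheat (Triticum aestivum), without the roots and without any treatment, when the plants were 2 months old. Each of 4 groups had 3 libraries: the wild type (WT), and C20, C22 and C40, which are lines overexpressing TaSIP1ΔC (the labels write the last also as 40C). The labels do not give the promoter that drives the transgene, the host cultivar, or whether the libraries of a group came from separate plants. The p-values therefore measure the spread between these libraries, which may be technical, and a lower level in such bulk tissue cannot be told apart from fewer cells of a type.

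Plant SWEETs move sucrose or hexoses out of cells or across the vacuolar membrane without using energy, unlike the proton-coupled sucrose and monosaccharide carriers. In Arabidopsis and rice, members of the family release sucrose from leaf cells for phloem loading, feed developing seeds and pollen, and are switched on by some bacterial pathogens that use the exported sugar. The deposited table names the domain but not the individual SWEET, so the genes are given by identifier, and no transported sugar or role is assigned to any one of them.

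Library totals ran from 25622422 to 43532179 counts. The 58 SWEET genes together took between 0.0472% of the counts, in C20 replicate 2, and 0.187%, in C22 replicate 3. Core histone genes, markers of dividing cells, summed to 1145 to 1302 CPM (counts relative to the TMM-scaled library size) in WT, and 7 of the 9 line libraries held 5018 to 12601 CPM. C20 replicate 3 at 1490 CPM and C40 replicate 1 at 1157 CPM were the exceptions. Of 293 tested histone genes, 241 rose in the lines. Of 18 Rubisco small subunit genes, which mark green tissue, 14 fell, and their sum was 45856 to 63605 CPM in WT, 9607 to 48281 in C20, 14179 to 23058 in C22 and 10591 to 21759 in C40. Of 96 chlorophyll a/b-binding genes 16 fell, of 61 K-box MADS genes 14 rose and 8 fell, and 46 prolamin-type genes summed to at most 0.616 CPM. These counts of called genes are for the mean of the lines, where 11.5% of all genes tested rose and 11.7% fell. No gene carried a sieve element occlusion description, 60.9% of genes had any description, and no other phloem gene was looked for. The part of these marker levels in the SWEET values was not tested.

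The SWEET genes were unevenly spread over the chromosome groups and over the range of expression. Chromosome group 6 held 24 members of 26 described genes, group 1 held 10 of 11, group 7 held 9 of 19, group 5 held 6 of 8, group 3 held 5 of 6 and group 4 held 3 of 7. All 9 described genes of chromosome group 2 had a count of 0 in every library. The unplaced sequence held 1 member of 11 described genes. Compared per length, 16 members had a mean of at least 10 FPKM over the 4 groups, 39 had at least 1 FPKM, and 19 lay below 1 FPKM.

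**Figure D1:**
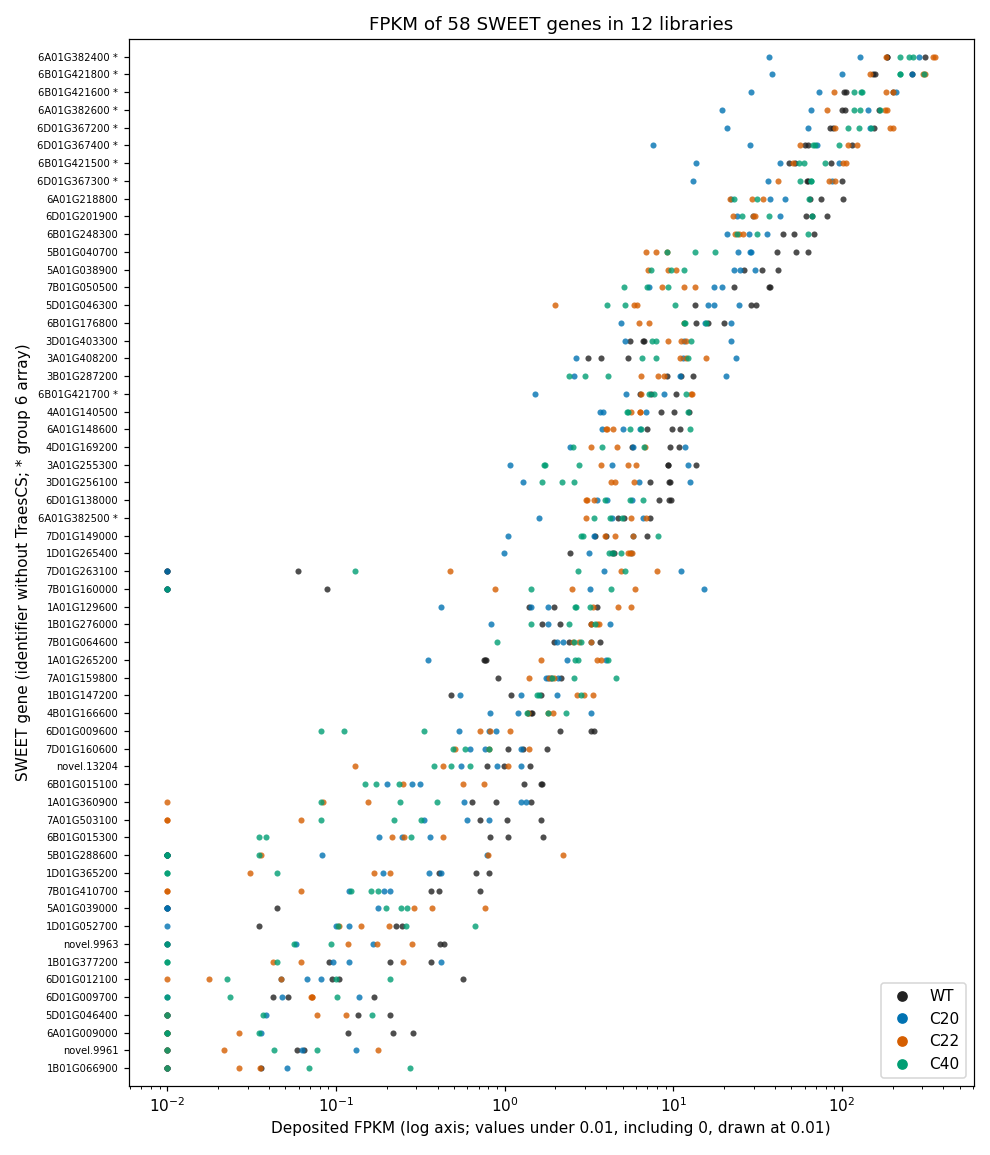
Deposited FPKM (log axis) of the 58 SWEET genes, 1 row per gene ordered by mean level and 1 point per library coloured by group; asterisks mark the 10 genes of the chromosome 6 clusters. Of the 10 highest genes, 8 belong to these clusters.

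Members were placed in 19 sets by chromosome group, order along the chromosome and listed gene length, as a reading aid for likely A, B and D subgenome copies. The sets were assembled with the values in view and without comparing any sequence. Near-identical copies may share reads, and the sources used here do not say how the authors' counting treated such reads. Coordinates are those of the deposited table, whose genome build those sources do not name either.

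In every library but C20 replicate 2, most SWEET counts came from 10 genes that lie in clusters on the 3 chromosomes of group 6. Their share of SWEET counts was lowest in C20 replicate 2, at 42.1%, and highest in C22 replicate 1, at 89.1%. The clusters hold 3 genes within 479 kb of chromosome 6A (601472319 to 601951707), 4 genes within 196 kb of 6B (692233695 to 692429778) and 3 genes within 154 kb of 6D (455098645 to 455252684). The 2 highest SWEET genes of all were TraesCS6A01G382400, with a mean of 229 FPKM over the groups, and TraesCS6B01G421800, with 207 FPKM. TraesCS6B01G421600 followed at 131 FPKM, TraesCS6A01G382600 at 122 FPKM and TraesCS6D01G367200 at 119 FPKM. TraesCS6D01G367400, TraesCS6B01G421500 and TraesCS6D01G367300 reached 72.1, 66.1 and 63.8 FPKM. The SDs within WT (20.4 to 72.2 FPKM for these 8 genes) are larger than many of the steps between neighbours in this order. The clusters also held the much lower TraesCS6B01G421700 and TraesCS6A01G382500, which gave 0.668% to 0.956% and 0.348% to 0.884% of the summed cluster FPKM in any library.

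The clustered genes moved together from library to library, and the line libraries spread around the WT libraries. Their summed level was 772, 770 and 1334 CPM in WT. It was 524, 160 and 1232 CPM in C20, 1462, 710 and 1512 CPM in C22, and 1232, 980 and 932 CPM in C40. C20 replicate 2 was the lowest library, and WT replicate 3 was above 7 of the 9 line libraries. None of the 10 genes passed the test for the mean of the lines (edgeR's quasi-likelihood test), none had an unadjusted p under 0.05, and DESeq2 called none of them. Their log2 fold changes lay between -0.33 and 0.11, with standard errors of 0.37 to 0.50. At this spread a moderate change of these genes was not detectable.

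Within the clusters the division between genes was steadier than the total. TraesCS6A01G382400 supplied 22.3% ± 0.308 (SD, n = 3) of the summed cluster FPKM in WT and 22.4% ± 1.28 (n = 9) in the lines. TraesCS6B01G421800 supplied 18.8% ± 0.364 in WT and 20.7% ± 1.78 in the lines. TraesCS6D01G367400 supplied 7.73% ± 0.362 in WT and 6.44% ± 1.26 in the lines. These shares are descriptions and were not tested.

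The other 48 members summed to a lower level in every line library than in any WT library. Their sum was 341, 387 and 390 CPM in WT. It was 238, 220 and 252 CPM in C20, 178, 172 and 192 CPM in C22, and 272, 191 and 147 CPM in C40. Most of the WT sum came from the triad of TraesCS6A01G218800 (132 to 195 CPM over its copies) and that of TraesCS5B01G040700 (61.0 to 99.2 CPM). Both triads are described below, and the sum is not a statement about each of the 48 members. Because the clusters carried 66.5% to 77.4% of SWEET counts in WT and varied so much, the sum over all 58 members overlapped between the groups, which had 1112 to 1724 CPM (WT) and 380 to 1705 CPM (lines).

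The main comparison set the mean of the 3 lines against WT, to see which genes differed with TaSIP1ΔC overexpression. A low-count filter left 47 SWEET genes for the test, and genes were called at an adjusted p of at most 0.05 (edgeR's quasi-likelihood test, Benjamini-Hochberg adjustment over all 75788 genes tested). Of the 47, 15 fell and 3 rose. That is 38.3% of the tested members, against 23.2% of all genes tested. For falls alone the share was 31.9% of the members against 11.7% of all genes, and for rises 6.38% against 11.5%. The median log2 fold change was -0.33 over the members and 0.07 over all genes. In 7 members every line library lay below every WT library (14.9%, against 8.13% of all genes), and in 0 members every line library lay above (5.95% of all genes). The called count depended on each WT library, being 10, 9 and 10 without WT replicate 1, 2 or 3, where 8.3%, 5.4% and 7.5% of all genes were called. Limma on the deposited FPKM called 0 members higher at either pseudocount. Of the 15 falls, 9 stayed called in all 12 fits that left out 1 library, and of the 3 rises, 0 did. Among these 9, TraesCS1D01G365200, TraesCS6B01G015100, TraesCS6B01G015300 and TraesCS7A01G503100 passed the low-count filter only with the help of WT libraries. Their calls, ratios and lack of overlap therefore come from genes kept for their high WT levels.

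**Figure D2:**
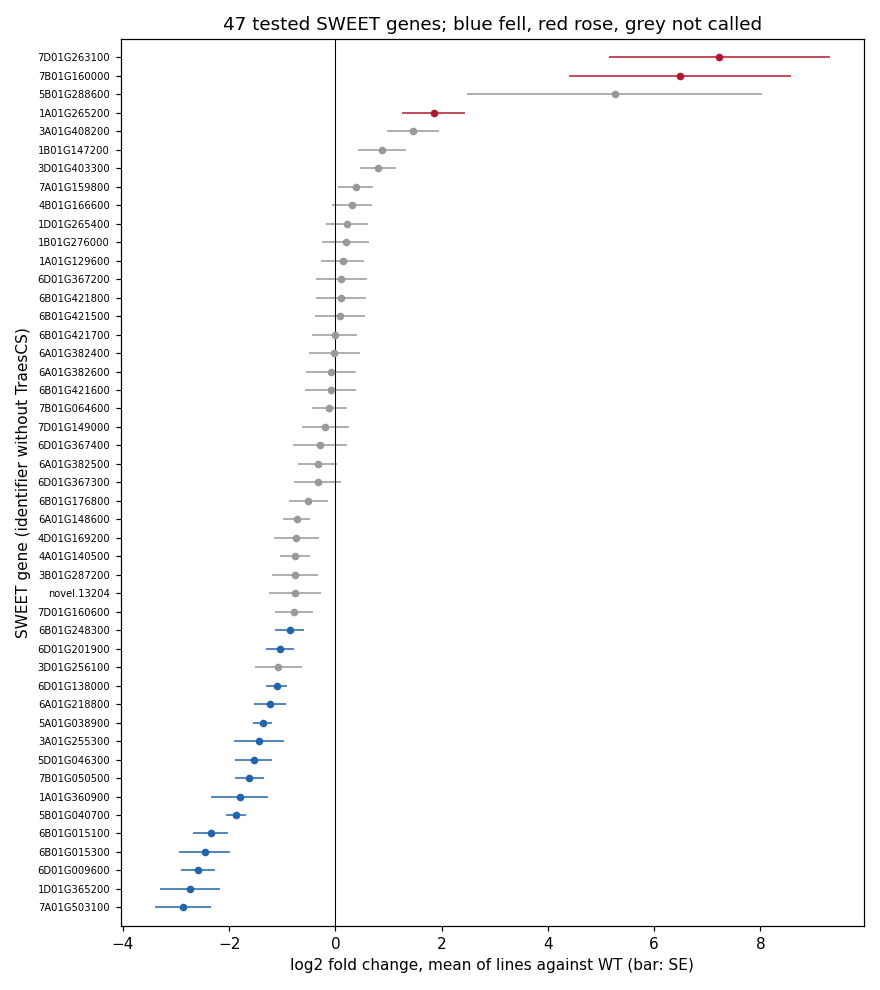
Log2 fold change of the mean of the lines against WT for the 47 tested SWEET genes, ordered by size, with bars of 1 standard error from edgeR; blue genes fell, red genes rose and grey genes were not called. The 15 falls have log2 fold changes from -2.87 to -0.86, and the rises of the 2 genes at the top carry standard errors above 2.

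The fall with the lowest adjusted p was of TraesCS5B01G040700, one of a chromosome 5 triad that also holds TraesCS5A01G038900 (5A, 35822179 to 35825771) and TraesCS5D01G046300 (5D, 45171317 to 45174768). TraesCS5B01G040700 (5B, 45204094 to 45207279) stood at 39.6, 46.5 and 31.0 CPM in WT, 22.1, 20.1 and 18.1 in C20, 5.24, 5.90 and 6.93 in C22, and 10.2, 13.0 and 6.92 in C40. All 9 line libraries were below all WT libraries, with C20 between WT and the other lines. The log2 fold change of the mean of the lines was -1.87 ± 0.18 (SE), with an adjusted p of 5.64e-04.

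The 5A copy showed C20 close to WT. TraesCS5A01G038900 had 25.5, 31.5 and 20.03 CPM in WT, 17.9, 21.96 and 19.1 in C20, 5.46, 7.925 and 7.17 in C22, and 8.93, 7.26 and 5.71 in C40. C20 replicate 2 lay inside the WT range, whereas all libraries of C22 and C40 were below it. The log2 fold change was -0.39 ± 0.23 in C20 (adjusted p = 0.301), -1.90 ± 0.24 in C22 (0.00261) and -1.81 ± 0.24 in C40 (0.00211).

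The 5D copy followed the same order with more spread. TraesCS5D01G046300 had 22.8, 21.3 and 10.05 CPM in WT, 13.2, 17.2 and 12.01 in C20, 1.51, 4.55 and 4.42 in C22, and 3.08, 7.49 and 3.88 in C40. The C20 libraries overlapped WT and the other line libraries did not. The log2 fold change of the mean of the lines was -1.54 ± 0.35, with an adjusted p of 0.0135 that rose to as much as 0.0702 when WT replicate 1 or 2 was left out.

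Differences between the lines were tested by an F test over C20, C22 and C40. By edgeR it called 2 of 47 members (4.26%), against 2.49% of all genes. Both were of the chromosome 5 triad, namely TraesCS5A01G038900 (adjusted p = 0.0150) and TraesCS5B01G040700 (0.0180). The call of TraesCS5B01G040700 was lost without C20 replicate 1, C22 replicate 1 or C22 replicate 2, with adjusted p up to 0.0636, and that of TraesCS5A01G038900 was kept in all 12 such fits. Without C20 replicate 2 the test called 7 members and 9.5% of all genes. For TraesCS5D01G046300 the adjusted p of this test was 0.0627. DESeq2 called 8 members between lines, the 6 others being TraesCS5D01G046300, TraesCS1A01G129600, TraesCS1A01G360900, TraesCS1D01G365200, TraesCS6D01G009600 and TraesCS7A01G503100. Limma at a pseudocount of 0.1 called 5, the 3 others being TraesCS1A01G360900, TraesCS6D01G009600 and TraesCS7A01G503100. As a share of the summed triad FPKM, the B copy gave 47.8% ± 2.94 in WT, 37.7% ± 3.85 in C20, 37.8% ± 5.44 in C22 and 45.2% ± 2.58 in C40 (SD, n = 3). No test was made of this share.

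**Figure D3:**
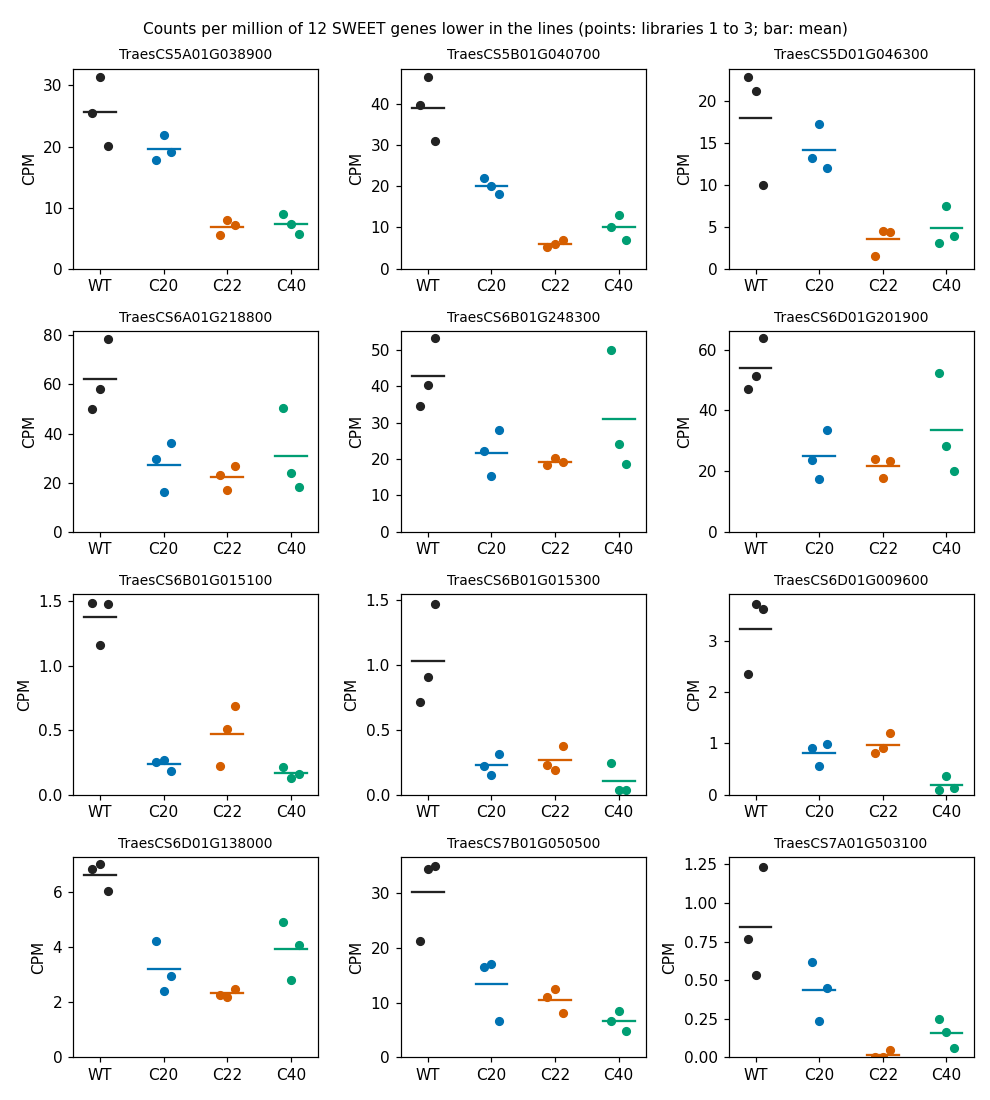
CPM of 12 SWEET genes that fell in the mean of the lines, 1 panel per gene with its own linear axis from 0, points for libraries 1 to 3 and a bar at the group mean. The chromosome 5 panels show C20 between WT and the lines C22 and C40, while TraesCS6B01G015100 and TraesCS6D01G009600 show all lines low.

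At the start of the group 6 chromosomes, a set of 6 low genes held the 2 members that fell in each of the 3 lines. TraesCS6D01G009600 (6D, 3725949 to 3727842) had 2.36, 3.74 and 3.63 CPM in WT, 0.913, 0.561 and 0.990 in C20, 0.803, 0.916 and 1.21 in C22, and 0.0923, 0.360 and 0.124 in C40. Every line library was below every WT library, and the C40 libraries were the lowest. The log2 fold change was -1.99 ± 0.44 in C20 (adjusted p = 0.0433), -1.73 ± 0.43 in C22 (0.0231) and -4.06 ± 0.50 in C40 (0.00170), and the difference between lines had an adjusted p of 0.0536.

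TraesCS6B01G015100 (6B, 9034513 to 9036327) had 1.48, 1.16 and 1.47 CPM in WT. It had 0.256, 0.266 and 0.180 CPM in C20, 0.225, 0.505 and 0.686 in C22, and 0.215, 0.131 and 0.155 in C40. The highest line library, C22 replicate 3, was still below the lowest WT library. The log2 fold change of the mean of the lines was -2.35 ± 0.32, with an adjusted p of 0.00194, and the gene was called in C20 (0.0233), C22 (0.0333) and C40 (0.00386). In C20 the calls of both genes were lost without WT replicate 1, 2 or 3 or C20 replicate 1. There TraesCS6D01G009600 also lost its call without C20 replicate 2, any 1 C22 library or C40 replicate 3 (adjusted p up to 0.158). Of 12 fits without 1 library, the C20 call was kept in 3 for TraesCS6D01G009600 and in 8 for TraesCS6B01G015100. In C22 the call of TraesCS6D01G009600 was lost without WT replicate 2 or 3 or any 1 C22 library, and that of TraesCS6B01G015100 without any 1 WT library or C22 replicate 1 or 2. In C40 both calls were kept in all 12 such fits. TraesCS6B01G015100 passed the low-count filter only with the help of WT libraries, so its calls come from a gene kept for its high WT level.

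Its neighbour TraesCS6B01G015300 (6B, 9079386 to 9081105) had 0.715, 0.911 and 1.47 CPM in WT, and the 9 line libraries had 0.0310 to 0.378 CPM, again without overlap. Its log2 fold change was -2.46 ± 0.49, with an adjusted p of 0.00825. It too passed the low-count filter only with the help of WT libraries. The summed level of the 6 genes was 5.003 to 7.51 CPM in WT, 1.12 to 1.68 in C20, 1.35 to 2.41 in C22 and 0.585 to 0.785 in C40. The other 3 genes were below the test's filter, and one of them, TraesCS6A01G009000, had 18 counts over WT and 3 over all lines. The WT level of that gene was 17.5 times the line level, with a 95% counting interval of 5.11 to 92.7 that covers counting error only.

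Next in level after the clusters came a group 6 triad with copies of equal listed length, which fell in the mean of the lines in all 3 copies. TraesCS6A01G218800 (6A, 404696866 to 404700439) had 49.8, 57.99 and 78.5 CPM in WT, 29.7, 16.1 and 35.9 in C20, 23.1, 16.9 and 26.6 in C22, and 50.4, 23.8 and 18.0 in C40. One line library, C40 replicate 1, lay inside the WT range, and the other 8 were below it. The mean of the lines gave a log2 fold change of -1.23 ± 0.31, with an adjusted p of 0.0199.

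The B and D copies gave the same picture at log2 fold changes of -0.86 ± 0.27 for TraesCS6B01G248300 (6B, adjusted p = 0.0431) and -1.04 ± 0.27 for TraesCS6D01G201900 (6D, 0.0219). In both, C40 replicate 1 was again the only line library inside the WT range, at 49.95 and 52.5 CPM. That library is also one of the 2 line libraries with a histone level near that of WT, and whether these go together for these genes was not tested. The mean-of-lines call of TraesCS6A01G218800 was lost without WT replicate 2 or 3 (adjusted p up to 0.0929), and that of TraesCS6D01G201900 without any 1 of the 3 WT libraries (up to 0.0939). The call of TraesCS6B01G248300 was kept in 3 of 12 such fits. The FPKM shares of the copies in WT were 38.9% ± 1.15 for A, 26.8% ± 0.440 for B and 34.2% ± 1.58 for D, and in C40 the A share was 32.02% ± 0.834 and the B share 32.4% ± 0.718. No test was made of these shares.

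A further group 6 triad, of 720 listed bases, passed edgeR's test for the mean of the lines in the D copy. TraesCS6D01G138000 (6D, 106697113 to 106698432) had 6.85, 7.03 and 6.04 CPM in WT, 4.24, 2.42 and 2.97 in C20, 2.28, 2.21 and 2.48 in C22, and 4.92, 2.81 and 4.10 in C40. All 9 line libraries were below all WT libraries, and the log2 fold change was -1.10 ± 0.20 with an adjusted p of 0.00559. TraesCS6A01G148600 (6A) had a log2 fold change of -0.73 ± 0.25 (adjusted p = 0.0586) and TraesCS6B01G176800 (6B) of -0.51 ± 0.36 (0.314). DESeq2 called TraesCS6A01G148600 lower in the mean of the lines. EdgeR called it lower in C22, but not without WT replicate 1 or 2 or any 1 C22 library. A difference between the copies was not tested.

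On chromosome group 7, TraesCS7B01G050500 (7B, 52348061 to 52350104) fell in the mean of the lines. It had 21.3, 34.5 and 35.1 CPM in WT, 16.5, 17.2 and 6.75 in C20, 11.02, 12.6 and 8.09 in C22, and 6.65, 8.57 and 4.84 in C40. All line libraries were below WT, and the log2 fold change was -1.62 ± 0.27 with an adjusted p of 0.00444. TraesCS7D01G149000, of nearly the same listed length on 7D, had a log2 fold change of -0.19 ± 0.44 (adjusted p = 0.769).

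The pair TraesCS7A01G503100 (7A, 692054604 to 692056497) and TraesCS7B01G410700 was low everywhere and lowest in C22. TraesCS7A01G503100 had 0.770, 0.534 and 1.23 CPM in WT, 0.621, 0.236 and 0.450 in C20, 0, 0 and 0.0473 in C22, and 0.246, 0.164 and 0.0621 in C40. C22 gave 2 counts over its 3 libraries and WT gave 81, a WT level 43.7 times the C22 level with a 95% counting interval of 11.7 to 367. The adjusted p was 0.00664 in the mean of the lines, 0.00657 in C22 and 0.0390 in C40. The C40 call was lost without any 1 WT library, C20 replicate 1 or C40 replicate 2 or 3. The calls in C22 and in the mean of the lines were kept in all 12 fits without 1 library. They come from a gene that passed the low-count filter only with the help of WT libraries. TraesCS7B01G410700, below the filter, had 2 counts in C22 and 36 in WT, a ratio of 19.4 (4.9997 to 166).

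The triad farthest along the group 1 chromosomes was lowest in C22 and C40, with a summed level of at most 0.410 CPM there, 0.657 to 1.53 CPM in C20 and 0.857 to 1.95 CPM in WT. TraesCS1D01G365200 (1D, 445640930 to 445642716) had 0.605, 0.502 and 0.309 CPM in WT, 0.146, 0.295 and 0.270 in C20, 0.129, 0.158 and 0.0237 in C22, and 0, 0.0327 and 0 in C40. Its adjusted p was 0.00976 in the mean of the lines, and the WT level was 46.0 times that of C40, which had 1 count (95% counting interval 7.86 to 1854). This gene passed the low-count filter only with the help of WT libraries. TraesCS1A01G360900 (1A) fell with a log2 fold change of -1.80 ± 0.53 (adjusted p = 0.0347), with 1.07, 0.659 and 0.480 CPM in WT, 0.438, 0.944 and 0.945 in C20, 0, 0.0631 and 0.118 in C22, and 0.185, 0.294 and 0.0621 in C40. C20 replicates 2 and 3 lay inside the WT range, and the other 7 line libraries below it. The call of TraesCS1A01G360900 was kept in 6 of 12 fits without 1 library.

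A chromosome 3 triad of 696 listed bases was lowest in C40. TraesCS3A01G255300 (3A, 477330492 to 477331628) had 6.52, 6.499 and 9.57 CPM in WT, 3.10, 0.708 and 8.59 in C20, 3.82, 2.62 and 4.26 in C22, and 1.23, 1.90 and 1.24 in C40. C20 spanned the whole range, with replicate 3 inside WT. In C40 the A, B and D copies fell with log2 fold changes of -2.37 ± 0.66, -1.80 ± 0.56 and -2.02 ± 0.60 (adjusted p = 0.0316, 0.0471 and 0.0392). For the mean of the lines TraesCS3A01G255300 passed at an adjusted p of 0.0489 and was called in 2 of 12 fits without 1 library. In C40 all 3 copies lost the call without any 1 WT library or C40 replicate 2 or 3. The B and D copies also lost it without C20 replicate 1 or any 1 C22 library, and the A and D copies without C40 replicate 1.

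**Figure D4:**
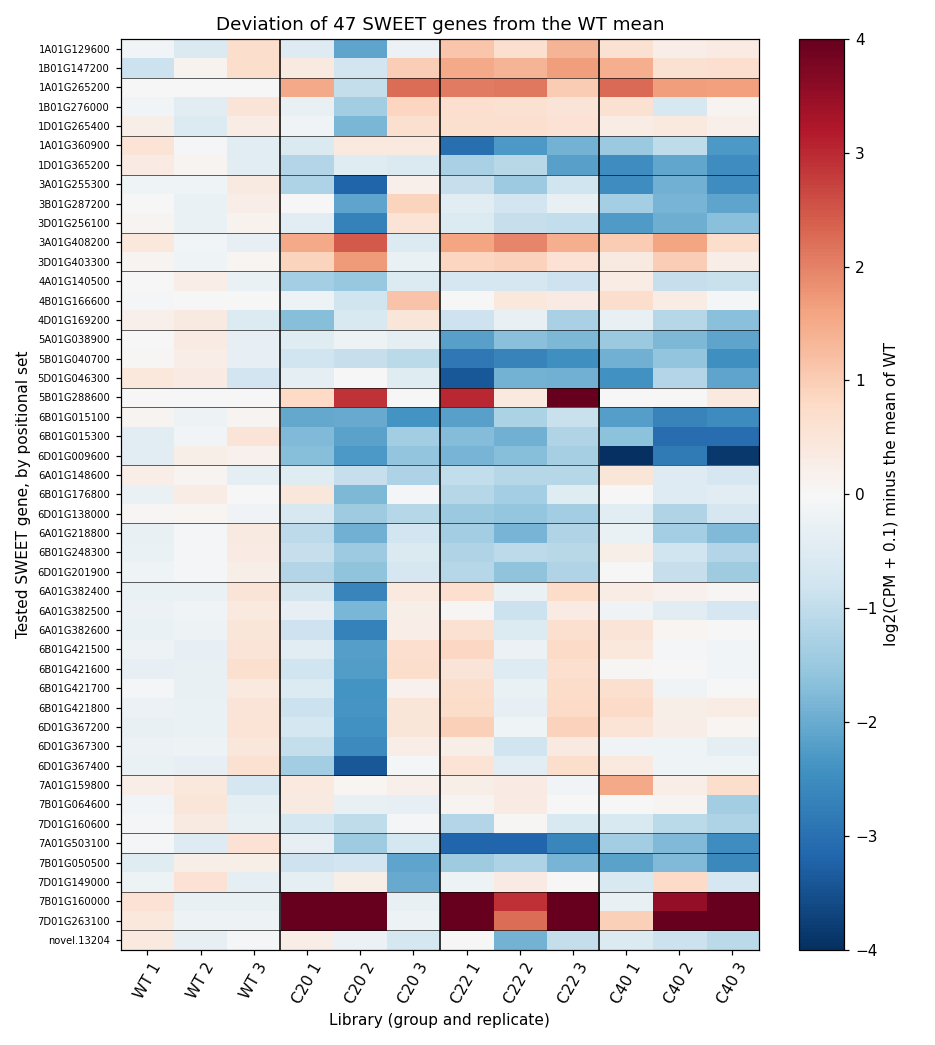
Deviation of log2(CPM + 0.1) from the WT mean for the 47 tested SWEET genes (rows, grouped by set) in the 12 libraries (columns); red is higher than WT, blue is lower, and the colours end at 4. The rows of the chromosome 5 triad are blue in C22 and C40, whereas TraesCS5B01G288600 on 5B is red in C22 replicates 1 and 3. The group 6 clusters are blue mainly in C20 replicate 2, and the pair TraesCS7B01G160000 and TraesCS7D01G263100 is red in 7 line libraries.

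The largest rises were of a chromosome 7 pair with almost no counts in WT. TraesCS7D01G263100 (7D, 242783658 to 242785484) had 0.0550, 0 and 0 CPM in WT, 3.65, 9.77 and 0 in C20, 4.60, 0.442 and 7.59 in C22, and 0.123, 2.49 and 4.84 in C40. TraesCS7B01G160000 (7B, 218547757 to 218549567) had 0.0825, 0 and 0 CPM in WT, 3.03, 13.4 and 0 in C20, 2.38, 0.821 and 5.61 in C22, and 0, 1.31 and 4.005 in C40. C20 replicate 3 and C40 replicate 1 were the lowest line libraries for both genes. The 9 line libraries held 1145 and 1044 counts of these genes and the 3 WT libraries 2 and 3. Both genes passed the low-count filter only through line libraries, so their calls and ratios come from genes kept for their high line levels. The line level was 196 times the WT level for TraesCS7D01G263100 (95% counting interval 54.3 to 1624) and 119 times for TraesCS7B01G160000 (40.7 to 580).

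The test passed this pair narrowly. The adjusted p in the mean of the lines was 0.0316 for TraesCS7D01G263100 and 0.0463 for TraesCS7B01G160000, and the calls were lost without any 1 of the 3 WT libraries (up to 0.117 and 0.150). The call of TraesCS7B01G160000 was kept in 3 of 12 such fits. By limma on the deposited FPKM neither gene was called, and neither was called by edgeR with a replicate block. The 2 line libraries lowest for the pair are those with a histone level near that of WT. Among the 7 others, C22 replicate 2 had a histone level of 9217 CPM but only 0.442 and 0.821 CPM of the pair. Whether the pair goes with the histone level was not tested.

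**Figure D5:**
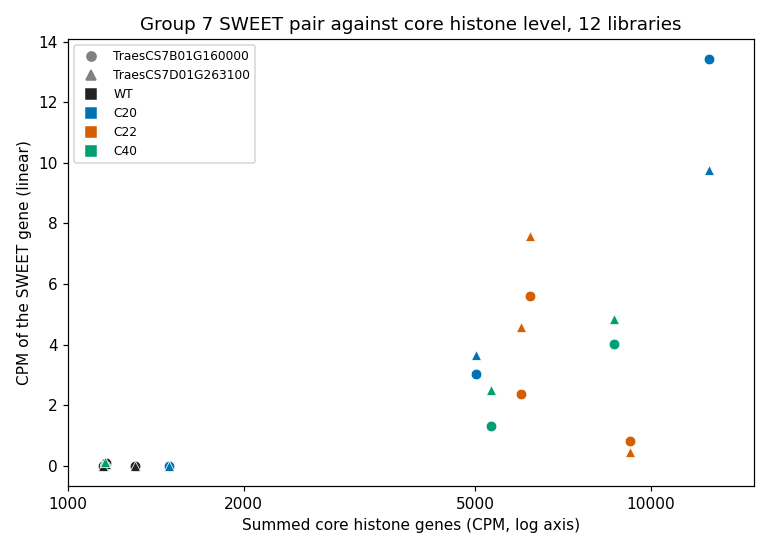
CPM of TraesCS7B01G160000 (circles) and TraesCS7D01G263100 (triangles) against the summed CPM of core histone genes (log axis), 1 point per library and gene, coloured by group. WT, C20 replicate 3 and C40 replicate 1 lie at the lower left with at most 0.123 CPM, and the other 7 line libraries lie to the right.

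The third rise was of TraesCS1A01G265200 (1A, 460860350 to 460863093), the A copy of a chromosome 1 triad. It had 0.605, 0.597 and 0.617 CPM in WT, 1.90, 0.266 and 3.19 in C20, 2.86, 2.97 and 1.32 in C22, and 3.32, 2.13 and 2.11 in C40. All line libraries but C20 replicate 2 were above WT. Its log2 fold change was 1.85 ± 0.59 (adjusted p = 0.0444), and the call was kept in 3 of 12 fits without 1 library and by neither limma fit. The A share of the triad's FPKM was 11.7% ± 3.38 in WT and 27.0% ± 6.46 in the lines (SD, n = 3 and 9). The B and D copies, TraesCS1B01G276000 and TraesCS1D01G265400, had log2 fold changes of 0.19 ± 0.44 and 0.21 ± 0.39. The A share rests on the same values as the call of the A copy, and differences between the copies were not tested.

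A chromosome 3 pair was higher in most line libraries without passing edgeR's test for the mean of the lines on all 12 libraries. TraesCS3A01G408200 (3A, 653303462 to 653305881) had 4.43, 3.05 and 2.57 CPM in WT, 9.53, 18.3 and 2.20 in C20, 9.90, 13.0 and 9.18 in C22, and 6.68, 9.94 and 5.40 in C40. Only C20 replicate 3 was not above WT. Across the lines its log2 fold change was 1.46 ± 0.50 with an adjusted p of 0.0543, and for TraesCS3D01G403300 it was 0.79 ± 0.34 with 0.108. Without C20 replicate 3 both genes were called. In the mean of the lines TraesCS3A01G408200 was also called by DESeq2, and by edgeR without C20 replicate 2 or with the replicate block. TraesCS5B01G288600 (5B) passed the filter through a few line libraries, with 0 counts in each WT library, 22, 1 and 83 in C22, 2, 22 and 0 in C20, and 1 over C40. EdgeR called it in C22, with the call kept in 4 of 12 fits without 1 library and by neither limma fit.

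Taken line by line, C22 and C40 had most of the calls. In C22, 15 members were called, against 18% of all genes: 13 fell and 2 rose, where 8.56% and 9.48% of all genes did. In 20 members all C22 libraries were below all WT libraries (25% of all genes) and in 9 all were above (30.4%). In C40, against 18.6% of all genes called, 12 members fell (8.8% of all genes) and 0 rose by edgeR (9.81% of all genes), with 4 at an unadjusted p under 0.05 and 3 by DESeq2. In 16 members all C40 libraries were below all WT libraries (20.5% of all genes) and in 4 all were above (23.3%). Both lines were compared with the same WT libraries. Leaving out single libraries moved the count from 5 to 27 in C22 and from 6 to 18 in C40, with 7, 5 and 7 in C22 without WT replicate 1, 2 or 3, 7, 6 and 7 without C22 replicate 1, 2 or 3, and 27 without C20 replicate 2. Of all genes, 4.4% were called at the lowest C22 count and 28.8% at the highest. In C40 it was 7, 7 and 6 without WT replicate 1, WT replicate 2 or C40 replicate 3, the last with 5.6% of all genes called, and 18 without C20 replicate 3, with 26.1%.

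C20 had 2 calls, against 2.46% of all genes, and both were falls (1.02% of all genes), of TraesCS6B01G015100 and TraesCS6D01G009600. It had 0 rises by edgeR (1.44% of all genes), with 6 at an unadjusted p under 0.05 and 3 by DESeq2. The member median in C20 was -0.50 on the log2 scale, against 0.03 for all genes, and in 12 members all C20 libraries were below all WT libraries (25.5%, against 15.9% of all genes). The count rose to 12 without C20 replicate 3 (16.4% of all genes) and to 10 without C40 replicate 1 (7.0%). It was 0 without any 1 of the WT libraries or C20 replicate 1, and 1 without C22 replicate 1, 2 or 3 or C40 replicate 3.

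Several sets gave no call by edgeR in the mean of the lines. The chromosome 4 triad, TraesCS4A01G140500, TraesCS4B01G166600 and TraesCS4D01G169200, had log2 fold changes of -0.76 ± 0.28, 0.32 ± 0.38 and -0.73 ± 0.42, and the 3 genes summed to 14.3 to 22.4 CPM in WT libraries and 6.97 to 20.02 CPM in line libraries. TraesCS4A01G140500 was called by DESeq2, and by edgeR without C20 replicate 3 or C40 replicate 1. A chromosome 7 triad of equal listed length, TraesCS7A01G159800, TraesCS7B01G064600 and TraesCS7D01G160600, summed to 2.95 to 5.65 CPM in WT libraries and 3.01 to 6.09 CPM in line libraries. The chromosome 1 pair TraesCS1A01G129600 and TraesCS1B01G147200 was highest in C22, at 4.55 to 6.81 CPM against 1.81 to 3.87 CPM in WT, with adjusted p of 0.157 and 0.0693 in C22 by edgeR. DESeq2 and both limma fits called TraesCS1B01G147200 there. For the 11 members below the filter, none of which had more than 66 counts in all, most differences were not detectable at this depth. One of them, TraesCS5A01G039000, had 1 count over WT and 61 over the lines, a ratio of 20.9 with a 95% counting interval of 3.62 to 840.

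The lists of other sugar genes are read against the 11.5% of all genes that rose and the 11.7% that fell in the mean of the lines, and no list was tested as a set. Of 161 tested sugar porters of the major facilitator family, which includes proton-coupled monosaccharide carriers, 21 rose and 23 fell in the mean of the lines. The genes named from these lists have the lowest adjusted p of their list among rises or among falls. TraesCS5A01G509400 fell from 19.4 ± 6.16 CPM in WT (SD, n = 3) to 3.30 ± 1.71 in the lines (n = 9), with an adjusted p of 5.07e-04 by edgeR. TraesCS3B01G120300, with almost no counts in WT, rose from 0.0288 ± 0.0276 to 1.95 ± 1.07 CPM (adjusted p = 0.00218). Of 14 genes with the domain of sucrose-proton carriers, 1 fell and 0 rose by edgeR, with 0 rises at an unadjusted p under 0.05 and 0 by DESeq2.

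Among enzymes that make or split sucrose, 1 of 27 genes with the sucrose synthase domain rose and 3 fell, and 3 of 16 genes with the sucrose-phosphatase domain, a list that shares genes with the first, rose and 0 fell by edgeR (3 at an unadjusted p under 0.05, 2 by DESeq2). TraesCS4A01G446700, with the sucrose synthase domain, rose from 19.8 ± 6.93 CPM in WT to 93.2 ± 58.1 in the lines (adjusted p = 0.0332). TraesCS2A01G406700, of the same list, fell from 4.57 ± 0.431 to 1.74 ± 0.691 CPM (0.0150). Of 62 family 32 hydrolases, which include the cell-wall and vacuolar invertases, 4 rose and 9 fell, and of 18 neutral invertases 2 rose and 3 fell. Over all genes tested, 11.5% rose and 11.7% fell. TraesCS7D01G010000 of family 32 fell from 106 ± 13.9 to 37.6 ± 12.04 CPM (adjusted p = 0.00217). TraesCS2B01G516300 of the same family, with almost no counts in WT, rose from 0.0497 ± 0.0473 to 1.46 ± 0.997 CPM (0.00897).

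Among starch genes, of 19 beta-amylases, which release maltose from starch, 7 fell and 0 rose by edgeR (0 at an unadjusted p under 0.05, 0 by DESeq2), and of 24 starch synthases 8 fell and 1 rose. The beta-amylase TraesCS2A01G215100 fell from 229 ± 80.3 to 37.9 ± 40.7 CPM (adjusted p = 0.00228). Of 20 hexokinases, which phosphorylate hexoses on entry into metabolism, 2 rose and 2 fell. The genes with trehalose phosphate synthase and phosphatase domains, lists that also share genes, gave 4 rises and 2 falls of 22, and 4 rises and 4 falls of 38. All these counts stand beside 11.5% rises and 11.7% falls over all genes tested. The median log2 fold change was -0.12 for the sugar porters, -0.36 for beta-amylases and -0.45 for starch synthases, against 0.07 over all genes.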

How the data were processed

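The labels describe RNA extracted with Trizol, 1 µg per sample, and NEBNext Ultra RNA library preparation. The authors deposited whole-number counts for each gene, along with FPKM values and gene lengths; featureCounts 1.5.0-p3 did the counting, per the submitters' processing notes. The sources used here name no aligner, build, annotation or strand mode, so a gene and an overlapping antisense gene cannot be told apart. Checked on the values, each deposited FPKM equals the count over length times 1 constant per library, and that constant, times the library total, ranged from 0.797 to 1.35 relative to plain FPKM. Listed lengths were multiples of 3 in 84.0% of all genes and in 81 of the 97 SWEET genes, so they are mostly coding lengths.

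The count test was edgeR 4.0.16 under R 4.3.3, with filterByExpr (75788 of 124118 genes kept), TMM scaling and 1 quasi-likelihood fit to the 4 groups of all 12 libraries. WT was compared with the average of the lines and with every line, and the lines with one another by an F test, with Benjamini-Hochberg adjustment over all genes tested and a threshold of 0.05. The standard error is the size of the log2 fold change divided by the root of F. CPM values are relative to TMM-scaled totals. Fitted fold changes of genes with almost no counts depend on the prior count, so ratios of summed counts are given for them with 95% counting intervals, which reflect counting error alone. The common biological coefficient of variation was 0.396.

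Alternatives were RLE size factors, DESeq2 1.42.0, a replicate block, no filter, a minimum of 1 CPM in 3 libraries, limma 3.58.1 on log2(FPKM + 0.1) and log2(FPKM + 1), each line fitted with WT alone, and fits that left out each library in turn, or both C20 replicate 3 and C40 replicate 1. The scripts were tested on simulated data. Replicates of a group differed by more than sampling noise, with a chi-square per gene of 6.87 to 170 for pairs.

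The SWEET genes, the sets and the lists of sugar and marker genes, given by Pfam domain, were chosen with earlier results of these data known. The rule named up to 12 members called in the mean of the lines and up to 3 per direction and line. It also named up to 6 that differed between lines, and set partners that differed in call. Values in every library are given for most of them. TraesCS6B01G015300, TraesCS6D01G201900, TraesCS5B01G288600 in C40 and some set partners are given by ranges, sums, single values or fold changes. The 10 highest members by FPKM are given by means, sums and shares. The chromosome 3 pair, the uncalled sets and the low-count members named outside this rule were chosen after their values were seen.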

Additional observations from a re-analysis of the deposited data

Results flagged for a closer look

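TraesCS5A01G038900 differed between the lines C20, C22 and C40 in the F test across lines (edgeR, adjusted p = 0.0150), with log2 fold changes against WT of -0.39 in C20, -1.90 in C22 and -1.81 in C40. TraesCS5B01G040700 did so at an adjusted p of 0.0180, with -0.96 in C20, -2.69 in C22 and -1.96 in C40. These 2 of 47 tested SWEET genes (4.26%) compare with 2.49% of all genes tested. The call of TraesCS5B01G040700 was kept in 9 of 12 fits without 1 library (adjusted p up to 0.0636).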

How the results depend on the processing

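Of the values of named members under the settings tried, 709 stayed on the same side of the threshold, 107 lost the call, 5 gained it and no call changed direction. The 709 include members with no call to lose. The named cluster genes, TraesCS6B01G176800 and TraesCS7D01G149000 were called for the mean of the lines under no setting. For the mean of the lines (18 called) the counts were 18 with RLE size factors, 21 with DESeq2, 20 without a filter, 13 with the 1 CPM filter, 14 and 15 with limma at pseudocounts of 0.1 and 1, and 26 without C20 replicate 3 and C40 replicate 1 together, where 41.8% of all genes were called. All 18 genes stayed called with RLE, with DESeq2, without a filter and without those 2 libraries. Leaving out 1 library gave 9 to 24 in the mean of the lines, 0 to 12 in C20, 5 to 27 in C22, 6 to 18 in C40 and 1 to 7 between lines. For C20 (2 called) the count was 12 with DESeq2 (15.7% of all genes), 1 with the 1 CPM filter, 4 with limma at a pseudocount of 1, 17 without the 2 libraries (25.3%) and 0 with C20 and WT fitted alone. For C22 (15 called) it was 23 without the 2 libraries (31.4%) and 24 with C22 and WT alone (40.9%). For C40 (12 called) it was 22 without the 2 libraries (34.3%). Between lines (2 called) it was 8 with DESeq2 (11.2%) and 5 with limma at 0.1 (3.7%). The cause of these shifts was not tested, except that the 1 CPM filter tested fewer members.

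Libraries with the same replicate number did not go together throughout: of 18 such pairs, 8 had a residual correlation over 0.1, and the range was -0.51 to 0.461. Every pair of replicate 2 libraries was positive, from 0.091 to 0.461, and pairs of replicate 1 and of replicate 3 libraries went both ways. Whether the replicate 2 libraries share a factor was not tested. With the replicate block the mean of the lines had 15 calls (13 shared), C20 0, C22 12, C40 11 and the difference between lines 2. In the mean of the lines it called TraesCS3A01G408200 and TraesCS6A01G148600 but not TraesCS1A01G265200, TraesCS1A01G360900, TraesCS6B01G248300, TraesCS7B01G160000 or TraesCS7D01G263100. In C22 it called TraesCS3A01G408200 but not TraesCS5B01G288600, TraesCS6B01G015100, TraesCS6B01G248300 or TraesCS7D01G263100, in C40 not TraesCS7A01G503100, and in C20 neither of the 2 calls. Depth limited the 11 members below the filter.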
